A study of Arabidopsis thaliana with 6 samples.

Results

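SWEET proteins are sugar carriers of the plasma membrane and the vacuole that let sugars pass down their concentration gradient. Of the 17 numbered members of the Arabidopsis thaliana family, 14 had a probe set on the ATH1 array that the platform annotation pairs with a single gene named SWEET and a number, and these 14 of the 13356 genes named in that annotation are described here. Each was measured by 1 probe set, none of them of the types that can match several genes. SWEET12 is unlisted in the platform annotation and was not analysed here. SWEET5 and SWEET15 are listed there only under the names AtVEX1 and SAG29, and lie outside this choice.

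The arrays carried RNA from wild-type Wassilewskija (Ws) plants and from bzip63-2, which carries the T-DNA insertion FLAG_610A08 (line H3-2) in bZIP63, a transcription factor gene of the low-energy response. Each genotype had 3 arrays, and each array had its own pool of 5 plants. The plants were 25 d past germination, were kept at 22°C under 10 h of light and 14 h of darkness, and were taken as the night ended, when leaves live on the starch stored during the day. The labels name the 4 youngest leaves as the tissue, and the methods add the shoot apical meristem. Only this 1 insertion allele was on the arrays, so effects of the insertion in bZIP63 and of other features of this line cannot be told apart.

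In leaves, sucrose made in the mesophyll leaves phloem parenchyma cells through SWEETs of clade III, above all SWEET11 and SWEET12, and is then loaded into the companion cells by the proton symporter SUC2. The family is usually divided into 4 clades. Members of clades I and II mostly carry glucose and other hexoses, those of clade III sucrose, and SWEET16 and SWEET17, of clade IV, sit in the vacuolar membrane and move fructose and other sugars. SWEET2, of clade I, is also a vacuolar protein and is known from roots. Several members are best known outside leaves, such as SWEET8 in the anther and pollen and SWEET9 in nectaries.

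All values below are log2 values made by the authors with RMA, and a difference is bzip63-2 minus Ws. The lowest value was 2.469 on all 6 arrays. This floor held 39.4% to 42.2% of the probe sets of an array within 0.05 of it, so a value up to 2.519 was counted as at the floor and not as a level. Array medians were 2.61 to 2.62, and correlations between arrays ran from 0.990 to 0.996. bZIP63 itself had values of 5.32, 5.51 and 5.91 in Ws and of 8.65, 8.55 and 8.78 in bzip63-2, so the arrays labelled as the mutant had the higher values. This goes against what a loss of transcript would give, and in all that follows bzip63-2 stands for the arrays so labelled. Every direction given here rests on those labels, and no source used here gives the position of that probe set relative to the insertion. The number of arrays limits the precision.

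At the end of the night, 4 of the 14 SWEET genes were above the floor on all 6 arrays, namely SWEET1, SWEET2, SWEET11 and SWEET17. These are 28.6% of the 14 genes, whereas 49.7% of all named genes were above the floor on all arrays. SWEET4 rose above it on 1 array. The other 9 members, or 64.3%, stayed at the floor throughout, compared with 36.5% of named genes. Clades I, III and IV each had at least 1 member above the floor on all arrays, and clade II had none.

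No SWEET gene passed the comparison of the genotypes. With limma fitted to 22746 probe sets and an adjusted p of 0.05 as the threshold, 0 of the 14 members were called higher and 0 lower, and the share called among all probe sets was 0.00% each way. The bZIP63 probe set had the largest positive difference of all, 3.08, and did not pass either (adjusted p = 0.11 from limma). The absence of calls is therefore a property of this fit and not particular to SWEET genes. At an unadjusted p under 0.05 there were also 0 of 14 members, against 6.37% of all probe sets. For 0 of 14 members did the arrays of the genotypes lie apart without overlap, against 10.0% of all probe sets and 21.1% of those with a mean above 3. The median difference was 0.00 over the 14 members and 0.21 over the 4 that were above the floor, next to 0.00 over all probe sets and 0.03 over those with a mean above 3. SWEET11 and SWEET1 had the larger positive differences, SWEET17 a small one and SWEET2 one slightly below 0.

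**Figure D1:**
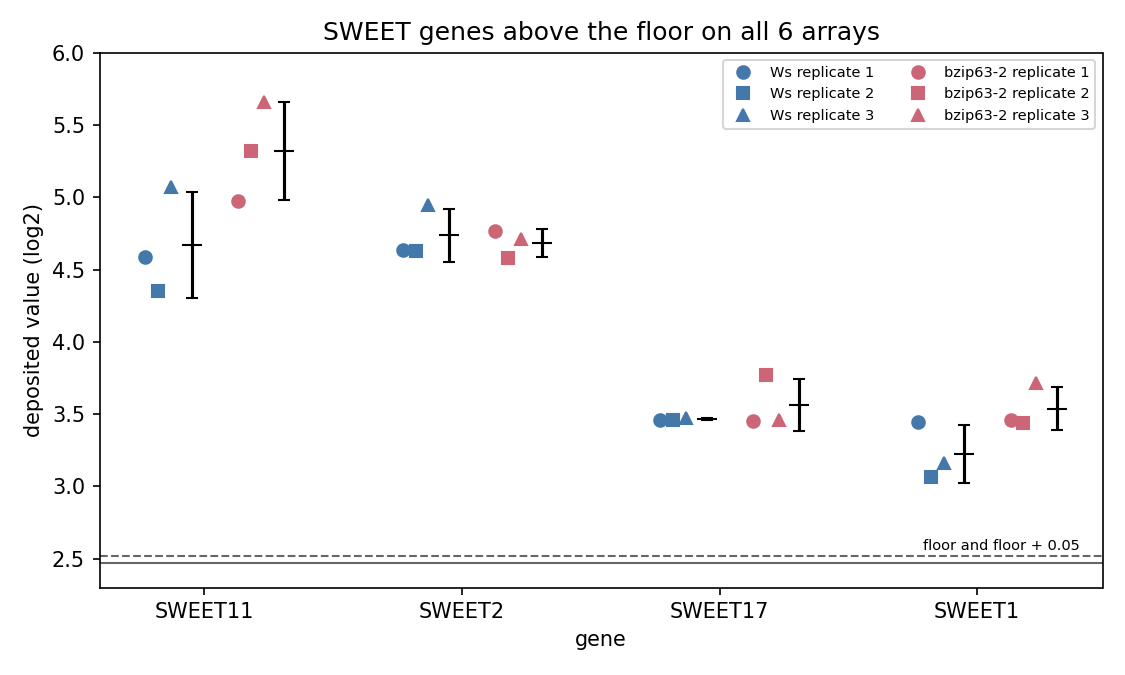
Deposited log2 values of the 4 SWEET genes above the floor on all arrays, by genotype. Each point is 1 array, the black marks are the mean and SD of 3 arrays, and the lines at the bottom are the floor of 2.469 and the limit of 2.519. For each gene the values of both genotypes overlap, and SWEET11 has the widest range.

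SWEET11 (AT3G48740) exports sucrose from phloem parenchyma cells. Its values were 4.59, 4.35 and 5.07 in Ws and 4.98, 5.32 and 5.66 in bzip63-2. Of the bzip63-2 arrays, 2 were above every Ws array, while replicate 1 lay below Ws replicate 3, so the groups overlapped by this 1 pair of arrays. Ws had a mean of 4.67 ± 0.37 (SD, n = 3 arrays) and bzip63-2 one of 5.32 ± 0.34 (SD, n = 3). The difference of 0.65 (standard error 0.28) corresponds to 1.57-fold, with a 95% interval from 0.941-fold to 2.61-fold. It did not pass (adjusted p = 0.74 from limma), and an exact two-sided permutation test over the 6 arrays gave p = 0.2, where 0.1 is the smallest value that 3 against 3 can give. These data therefore leave both no difference and a rise of more than 2-fold within the interval for SWEET11. In a leaf extract, a change in the number of cells of a type and a change in RNA per cell cannot be told apart, which bears on a gene used mainly in phloem parenchyma. The phloem marker list (SUC2, APL, AHA3, SEOR1 and SEOR2) had 0 of 5 members with a named probe set, so the share of phloem tissue was not measured.

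SWEET11 varied widely between plant pools of the same genotype. Its SD between replicates, pooled over the genotypes, was 0.35, while the median was 0.11 among the 8242 probe sets whose mean exceeded 3, and only 1.19% of these probe sets had a larger SD. The wide range was present in both genotypes, as the SDs of 0.37 and 0.34 show. For the other members above the floor on all arrays the pooled SD was 0.18 for SWEET1, 0.15 for SWEET2 and 0.13 for SWEET17, and 16.9%, 30.2% and 41.4% of the probe sets had a larger one. SWEET11 thus combined the largest difference of the 14 members with the largest replicate error.

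**Figure D2:**
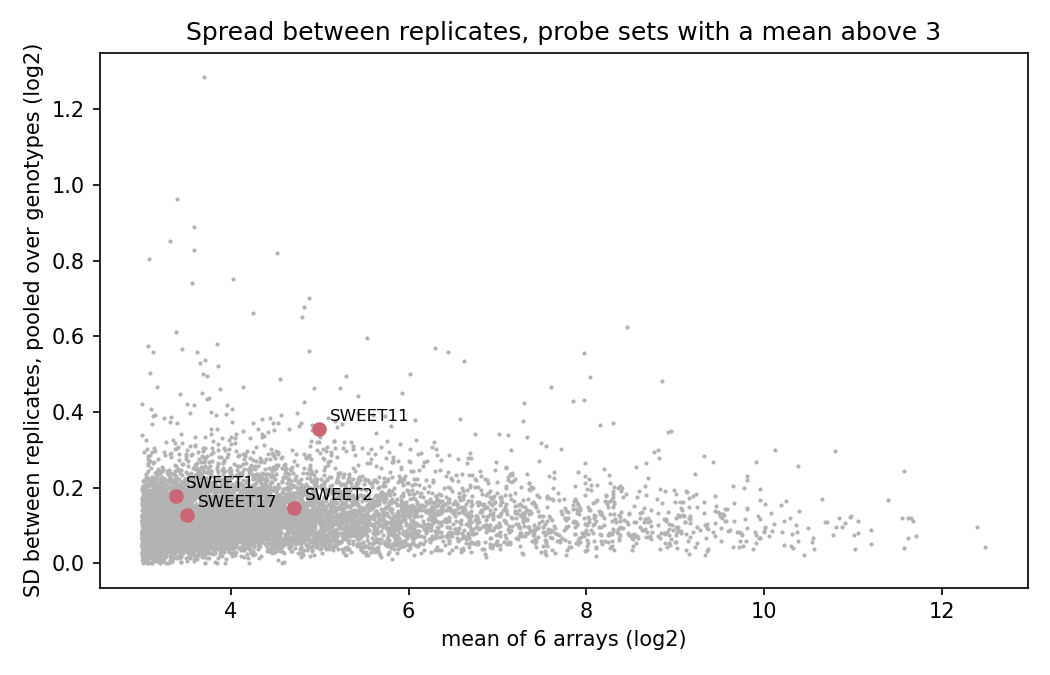
SD between replicates, pooled over Ws and bzip63-2, against the mean of all 6 arrays, for 8242 probe sets with a mean above 3 (log2, grey). The red points are SWEET genes. SWEET11 lies at 0.35, above all but 1.19% of the probe sets, and SWEET1, SWEET2 and SWEET17 lie at 0.13 to 0.18.

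SWEET1 (AT1G21460), a glucose carrier of the plasma membrane, had values of 3.45, 3.06 and 3.16 in Ws and of 3.46, 3.44 and 3.71 in bzip63-2. The groups overlapped only because Ws replicate 1 was slightly above bzip63-2 replicate 2. Ws had a mean of 3.22 ± 0.20 (SD, n = 3 arrays) and bzip63-2 one of 3.54 ± 0.15 (SD, n = 3). The difference of 0.32 (standard error 0.14) was 1.24-fold, with an interval from 0.963-fold to 1.61-fold. It did not pass (adjusted p = 0.74 from limma; exact permutation p = 0.2).

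For SWEET11 and SWEET1 the unadjusted p moved when dim probe sets were dropped. A fit restricted to the 8242 probe sets whose mean exceeded 3 gave an unadjusted p of 0.0234 for SWEET11 and of 0.0363 for SWEET1, but adjusted p values from limma of 0.23 and 0.27. In that fit 16.0% of the probe sets had an unadjusted p below 0.05, 11.4% in the higher direction, and 0.692% passed after adjustment. The 4 SWEET genes it held thus had 2 at the unadjusted level, both higher, and 0 after adjustment.

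SWEET2 (AT3G14770), of the vacuolar membrane, had values of 4.64, 4.63 and 4.95 in Ws and of 4.77, 4.58 and 4.71 in bzip63-2. The bzip63-2 values fell on both sides of the first pair of Ws values, and Ws replicate 3 was the highest array. The means were 4.74 ± 0.18 (SD, n = 3 arrays) and 4.69 ± 0.10 (SD, n = 3). The difference was -0.05 (standard error 0.11), which is 0.965-fold with an interval from 0.782-fold to 1.19-fold (adjusted p = 0.96 from limma). Its sign was not stable, since it became 0.05 without Ws replicate 3.

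SWEET17 (AT4G15920), the vacuolar fructose carrier of clade IV, had values of 3.461, 3.461 and 3.476 in Ws and of 3.453, 3.769 and 3.461 in bzip63-2. Replicate 2 of bzip63-2 stood apart and the other 5 arrays agreed to within 0.03. The difference of 0.09 (standard error 0.10) was 1.07-fold with an interval from 0.889-fold to 1.28-fold (adjusted p = 0.75 from limma), and it came from that 1 array, as it was -0.009 without it. SWEET17 had the same deposited value, to 3 decimals, on 3 arrays. Among probe sets with a mean above 3 and up to 4, 6.83% had such a value on 3 or more arrays. SWEET1, SWEET2 and SWEET11 had a different value on each array.

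**Figure D3:**
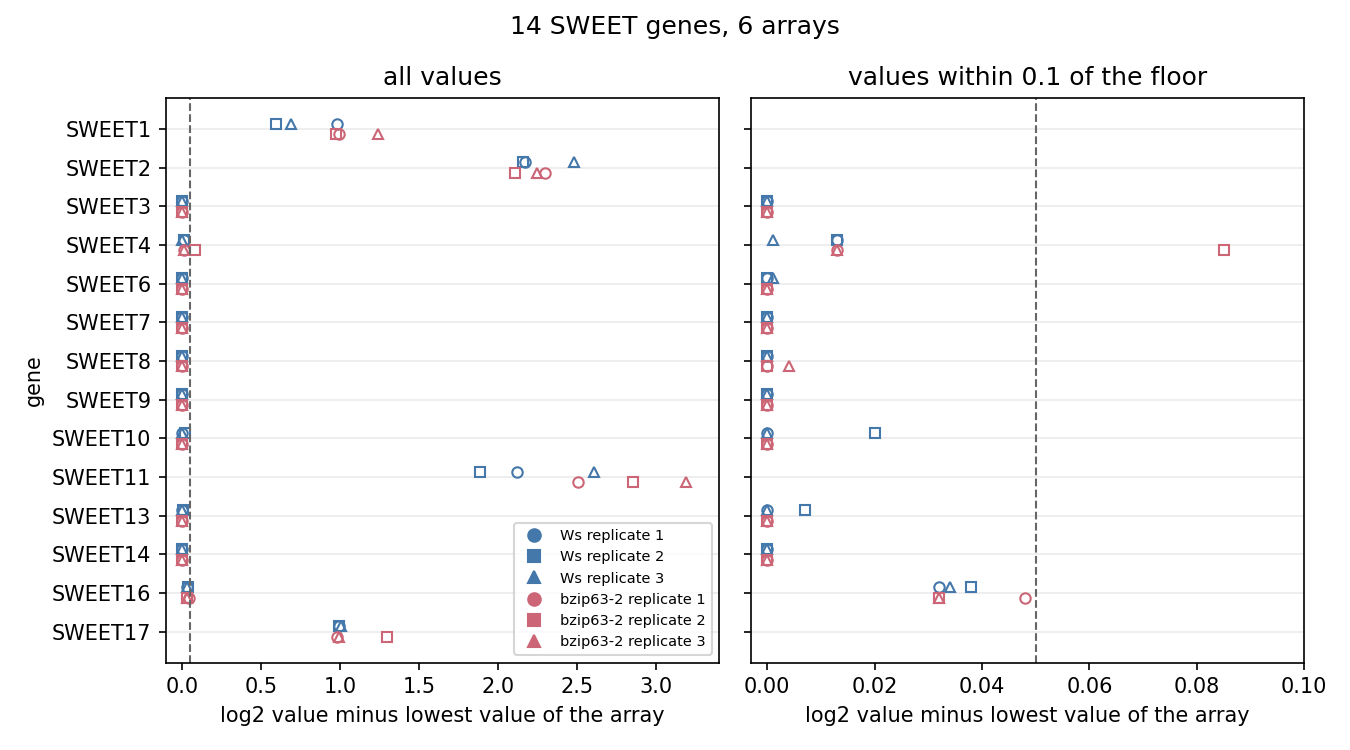
Distance of all 14 SWEET genes from the lowest value of the array (log2), for 6 arrays, with all values on the left and those within 0.1 of the floor on the right. The dashed line is the limit of 0.05. SWEET1, SWEET2, SWEET11 and SWEET17 are clear of it, SWEET4 passes it on 1 array and SWEET16 stays just short of it.

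SWEET4 (AT3G28007), a hexose carrier of clade II, had values of 2.482, 2.482 and 2.470 in Ws and of 2.482, 2.554 and 2.482 in bzip63-2. It was above the limit on 1 array only, bzip63-2 replicate 2, which is also the array on which SWEET17 was highest. That array was the highest of the 6 for 16.8% of the 8538 probe sets whose values ranged over more than 0.2, within the 12.4% to 20.4% of the other arrays. It was the sole array above the floor for 183 probe sets, against 119 to 668 for the others. No fold is given for SWEET4, because all Ws arrays were at the floor.

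SWEET16 (AT3G16690), the second vacuolar fructose carrier, was the member nearest to the limit from below, with a highest value of 2.517 in bzip63-2 replicate 1 and 2.501 to 2.507 on the other arrays. The 2 members of clade IV thus differed in detection, SWEET17 being measured on all arrays and SWEET16 on none.

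In clade III, which exports sucrose, SWEET11 was the only member above the floor among the 5 with a probe set named here. Neither SWEET12 nor SWEET15 is among these 5. SWEET15, listed as SAG29, was above the limit on 5 of the 6 arrays, as given in the closing section. SWEET9, the carrier of nectar secretion, and SWEET14 had the floor value on all 6 arrays. SWEET10, known from floral induction, was highest at 2.489 and SWEET13 at 2.476, both in Ws replicate 2 and with the floor value on the other 5 arrays. SWEET10 (AT5G50790) and SWEET13 (AT5G50800) are neighbouring genes in the RefSeq annotation of TAIR10.1. SWEET13 is, like SWEET14, known for a role in anthers and can transport gibberellin.

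The other members of clades I and II were also at the floor. SWEET3 and SWEET7 had the floor value on every array. SWEET6 was at 2.470 in Ws replicate 3, and SWEET8, needed for pollen wall formation, at 2.473 in bzip63-2 replicate 3, each with the floor value on the other 5 arrays. For these 9 members neither a level nor a difference between the genotypes could be measured, and a difference near 0 is a property of the floor and not a measurement of equal expression. The pollen and seed marker list had 1 of 4 members with a named probe set, AT5G45880, a relative of the pollen protein LAT52, which was above the floor only in Ws replicate 2, at 2.61.

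The genotype shift of 1 member relative to another was compared within arrays, which removes an effect of the array only where it is equal for both probe sets. For the 4 members above the floor there are 6 pairs, all of which were computed. SWEET11 minus SWEET2 was -0.05, -0.28 and 0.12 in Ws and 0.21, 0.74 and 0.95 in bzip63-2. This was the only 1 of the 6 pairs in which the genotypes did not overlap, with a shift of 0.70 and an exact two-sided permutation p = 0.1, the smallest this design can give. Adjusted over the 6 pairs, this permutation p was 0.36. The comparison was chosen after the values were seen, and the share of other probe set pairs without overlap was not computed. The shifts were 0.55 for SWEET11 minus SWEET17 and 0.33 for SWEET11 minus SWEET1, with overlap in each (exact permutation p = 0.3 for both). SWEET2 minus SWEET1 shifted by -0.37 (exact permutation p = 0.2). With 3 arrays against 3, none of these could reach an exact p of 0.05, so an unequal change of SWEET11 and SWEET2 is not shown.

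**Figure D4:**
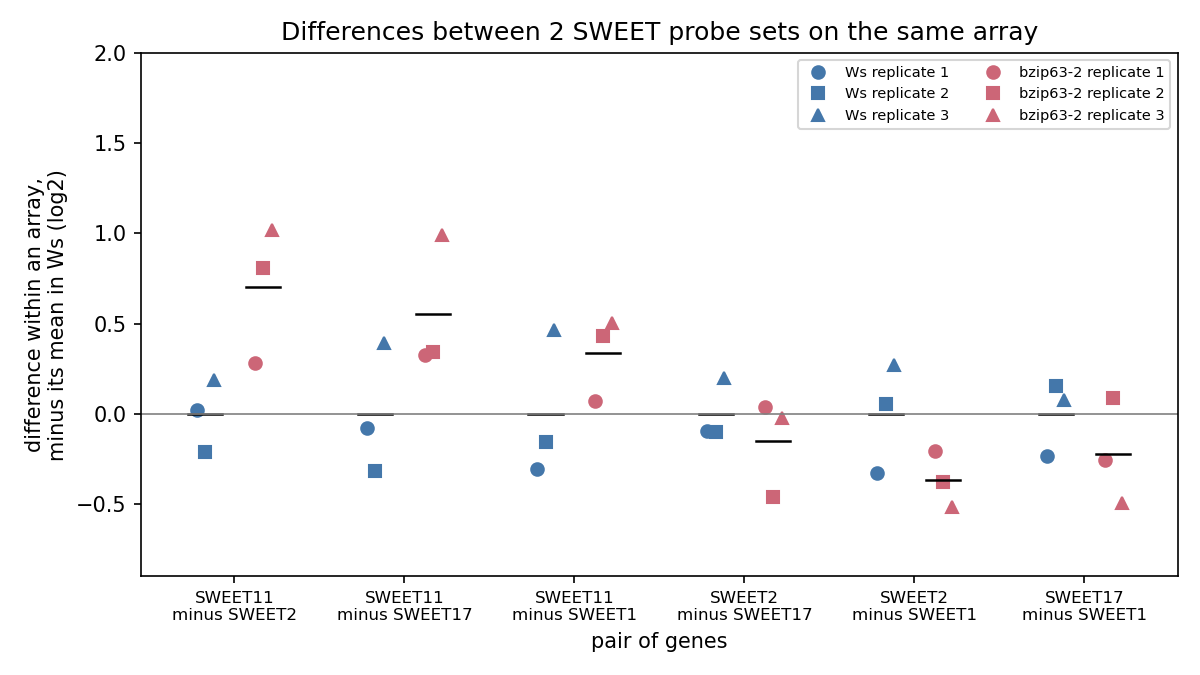
Difference between the log2 values of 2 SWEET genes on the same array, after subtraction of the mean of that difference in Ws, for all 6 pairs of the 4 genes above the floor. Each point is 1 array and the black lines are genotype means. In SWEET11 minus SWEET2 the 3 bzip63-2 arrays lie above the 3 Ws arrays, and in the other 5 pairs the genotypes overlap.

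Across the 6 arrays SWEET11 and SWEET1 varied together, with a Pearson correlation of 0.72, which fell to 0.37 once the genotype means were removed. SWEET11 and SWEET2 had 0.19 across all arrays and 0.53 within genotypes, where Ws replicate 3 was the highest Ws array for both. SWEET17 and SWEET11 had 0.34 across all arrays and 0.05 within genotypes, and SWEET17 and SWEET2 had -0.45 and -0.41. These are descriptions over 6 arrays that share normalization, and the members show no single common pattern.

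No other sugar carrier on the list passed the test either. Of 48 genes on a list of sucrose, hexose, polyol, inositol and plastid carriers, 13 had a named probe set, and 7 of the 13 were above the floor on all arrays. After adjustment, limma called 0 of the 13 higher and 0 lower. At an unadjusted p under 0.05, 2 of 13 were higher and 0 lower, against 4.33% and 2.04% of all probe sets. Both have a mean above 3. In the same fit, 837 of the 8242 probe sets with a mean above 3 were higher at that threshold and 357 lower. The 2 higher genes of the list were also the ones whose arrays did not overlap between genotypes, against 10.0% of all probe sets and 21.1% of those with a mean above 3. The median difference was 0.00 over the 13 and 0.12 over the 7 above the floor on all arrays, with a range from -0.24 to 0.57.

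TMT1 (AT1G20840), which loads glucose and fructose into the vacuole, had values of 3.62, 3.44 and 3.16 in Ws and of 4.01, 4.02 and 3.89 in bzip63-2. All 3 bzip63-2 arrays were above all Ws arrays, with a difference of 0.57 (adjusted p = 0.50 from limma). The study listed TMT1 as changed on these same arrays, so its direction is not independent evidence. AT5G59250, a carrier of the sugar transporter superfamily, had a mean of 4.83 ± 0.08 (SD, n = 3 arrays) in Ws, with a highest value of 4.90, and of 5.06 ± 0.06 (SD, n = 3) in bzip63-2, again without overlap and with a difference of 0.23 (adjusted p = 0.54 from limma). SFP1, of the ERD6-like group, had a difference of 0.27 and AT5G17010, related to vacuolar glucose transporters, one of -0.24, both with overlap and an adjusted p of 0.74 from limma. Like SWEET2 and SWEET17, TMT2, the second tonoplast carrier of this type, overlapped between genotypes, with a difference of 0.12 (adjusted p = 0.75 from limma).

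**Figure D5:**
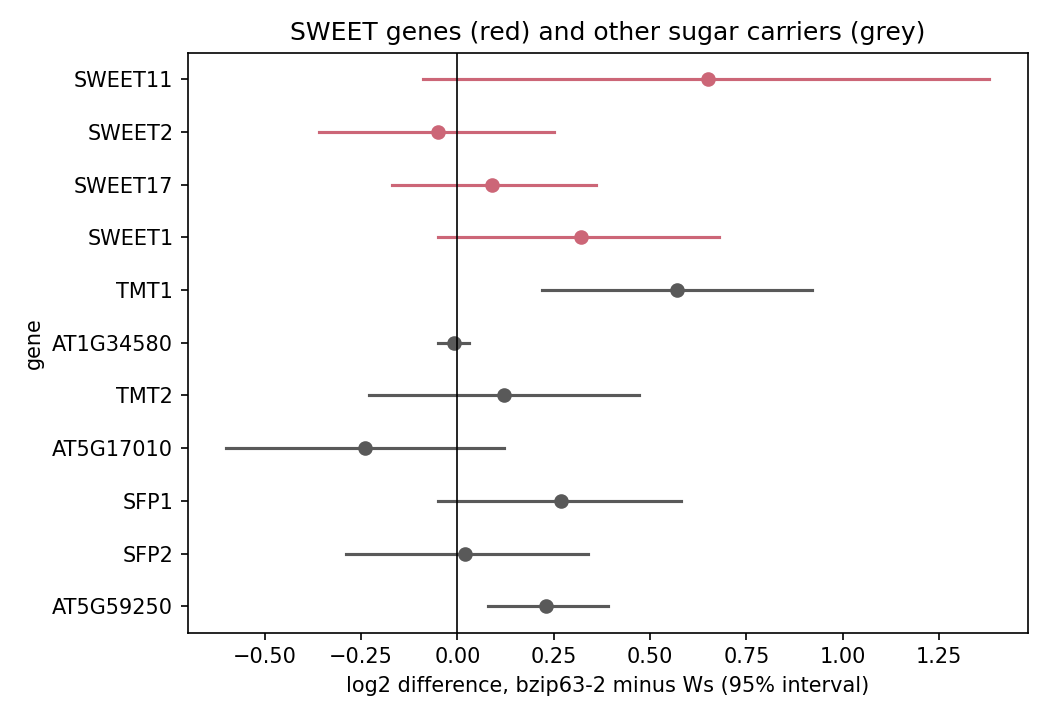
Log2 difference, bzip63-2 minus Ws, with its 95% interval from limma, for the 4 SWEET genes (red) and 7 other sugar carriers (grey) above the floor on all arrays. The intervals of all 4 SWEET genes include 0, that of SWEET11 is the widest, and those of TMT1 and AT5G59250 lie above 0 without adjustment for the number of probe sets.

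Genes listed as invertases and sucrose synthases were barely covered. Of the 14 on this list, 2 had a named probe set. Whether their enzymes use sucrose moved by the SWEET carriers was not examined. The vacuolar invertase gene AT1G62660 had values from 2.69 to 2.91 and a difference of -0.03, and cwINV6, a cell wall enzyme, stayed at the floor. From limma 0 of 2 passed in either direction, also at an unadjusted p under 0.05.

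The tissue was checked against marker lists, most of whose members have no named probe set. RCA, the activator of Rubisco and a marker of green leaf, was at 11.52 to 11.71 in Ws and 11.58 to 11.82 in bzip63-2, the only 1 of 6 green leaf markers with a named probe set. For shoot meristem markers this was 0 of 6. PYK10, a beta-glucosidase gene abundant in roots and the 1 of 4 root markers measured, had values of 3.25, 3.84 and 3.63 in Ws and of 4.95, 4.87 and 4.53 in bzip63-2, a difference of 1.21 without overlap (adjusted p = 0.37 from limma), and the study listed it as changed on these arrays. WRKY53, the 1 of 4 markers of senescing leaves measured, was at 2.93 to 2.98 in Ws and 3.44 to 3.80 in bzip63-2 (adjusted p = 0.33 from limma). The part of either marker in the values of SWEET11 and SWEET1 was not tested.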

How the data were processed

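RNA of 6 samples was hybridised to Affymetrix ATH1 arrays. The authors made the deposited log2 values, 1 per probe set and array, with RMA in Affymetrix Expression Console, and analysed them with affylmGUI. No source used here gives their versions, and the log2 scale was inferred from the range of the values. The comparison used limma 3.58.1 (lmFit and eBayes) under R 4.3.3 on 22746 probe sets, without the 64 control probe sets, with Benjamini-Hochberg adjustment and a threshold of 0.05, without a filter or a replicate block. Standard errors and 95% intervals are limma's. The fit was also run on simulated data with known differences, whose outcome is not reported here. A value more than 0.05 above the lowest of its array counted as above the floor.

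The platform annotation gave 13513 probe sets 1 gene, 503 several and left 8730 unlisted. Locus codes came from RefSeq genes of TAIR10.1. The bZIP63 probe set was named through a supplementary table of the study, from which no value was taken. Named were all SWEET genes, bZIP63, up to 4 genes of each list with the lowest p and a mean above 3, and the 5 genes most correlated with the brightest SWEET probe set. TMT2, AT1G62660, cwINV6 and AT5G45880 were named after their values were seen. The members and lists were chosen with earlier results of these data known, and the comparison of pairs within arrays was chosen after the values were seen.

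Alternatives covered the threshold, a filter on dim probe sets, normalization, array weights, the prior of the variances, inclusion of controls, exclusion of probe sets that can match more than 1 gene, several probe sets of a gene, a replicate block, the margin above the floor and each array left out in turn.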

Additional observations from a re-analysis of the deposited data

How the results depend on the processing

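No SWEET gene was called higher or lower under any of the settings run, that is with an unadjusted p under 0.05 and no filter, the dim probe sets left out, another prior, array weights, repeated quantile normalization, control probe sets kept, other choices of probe sets, a replicate block or any 1 array left out. SWEET11 kept a positive difference in all 17 settings, from 0.48 to 0.85, with an adjusted p from limma of 0.23 to 0.87, and so did SWEET1, from 0.23 to 0.43, with an adjusted p of 0.27 to 0.87. For these genes only array weights, repeated quantile normalization and leaving out an array could move the difference. The other settings left it at 0.65 for SWEET11 and 0.32 for SWEET1 by design. SWEET2 ranged from -0.11 to 0.05 and turned positive without Ws replicate 3 (0.05) and without bzip63-2 replicate 2 (0.003). SWEET17 ranged from -0.009 to 0.15 and turned negative without bzip63-2 replicate 2 (-0.009). With a replicate block, SWEET11 had an unadjusted p of 0.0371 (adjusted p = 0.68 from limma), and 0 probe sets in all were called with or without it. The deviations of same-numbered arrays showed little correlation, at -0.04, 0.02 and 0.05. These values cannot decide whether same-numbered pools were grown or processed together. Repeated quantile normalization separated the genotypes for 1 of the 14 members, SWEET4, against 0 in the deposited values, which have ties there. SWEET4 then had 2.47 to 2.48 in Ws and 2.49, 2.56 and 2.49 in bzip63-2. Only bzip63-2 replicate 2 was above 2.519, the limit set for the floor in the deposited values. The gap between the genotypes thus lay within the range counted as floor and is not a measured difference. The share of all probe sets separated under this normalization is not given here. Over all probe sets the count called from limma was 0 higher and 0 lower. It was 28 higher and 29 lower with means of 3 or less left out, and 9 higher and 7 lower with probe sets at the floor on all arrays left out. Leaving out 1 array gave 0 to 9 higher and 0 to 25 lower, the most without Ws replicate 3. Without adjustment, 984 were higher and 465 lower at the same threshold, and of the other sugar carriers 2 were higher. Members at the floor, and the 3 arrays per genotype, set the limit of what these data can show.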

Other observations

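SAG29, which RefSeq gives as SWEET15 and which is known from senescing leaves and seeds, had values of 2.56, 2.54 and 2.48 in Ws and of 2.54, 2.94 and 2.54 in bzip63-2. It was above the limit of 2.519 on 5 of the 6 arrays, all but Ws replicate 3. Its highest value was on bzip63-2 replicate 2, as for SWEET4 and SWEET17. AtVEX1, given as SWEET5 and known from pollen, was above that limit only in Ws replicate 2, at 2.54, and at 2.48 on the other arrays.

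The SWEET11 probe set had the highest signal of the 14 members as a mean over all 6 arrays, though not in Ws alone, where SWEET2 was at 4.74 and SWEET11 at 4.67. It also had the lowest p. Signals of different probe sets do not compare transcript levels. Among 4127 genes with 1 named probe set and a mean above 3, the 5 whose values over the 6 arrays were most correlated with it were AT5G11500 and AT5G06560 (Pearson r of 0.99 each) and AT5G18900, AT5G02480 and AT1G21065 (0.98 each). Their differences between the genotypes were 0.15 to 0.25. In all, 107 of the 4127 genes had a correlation above 0.9 with SWEET11. The same count was not made for other probe sets, so whether 107 is many for 6 arrays was not tested.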
